A study of Homo sapiens with 4 samples.

Results

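The c-Jun peaks of the CXC chemokine cluster on chromosome 4 were examined in BT549, a line of human triple-negative breast cancer cells. The cluster was taken as chr4:74500000-75010000 on hg19, a window of 510 kb that holds CXCL8, CXCL6, CXCL1, CXCL5, CXCL3 and CXCL2. Its members are the peaks whose centre lies in this window, 46 of the 23721 peaks in the 4 deposited lists. The window was chosen by measured values, since the presence of its peaks with TNFalpha was already known when it was proposed. Its counts and score ranks are therefore a description of the region, and no test was made of them.

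Chromatin from serum-starved BT549 cells was immunoprecipitated with the c-Jun antibody H-79, in 1 library from cells given TNFalpha and 1 library from cells not given it. Normal rabbit IgG and input chromatin served as controls, and both came only from cells given TNFalpha. The sample labels put the TNFalpha exposure at 6 h and the series text at 3 h. Each c-Jun library was called against IgG and against input, which gave 2 lists per library that share the same c-Jun reads. With 1 library per condition no difference has a replicate check, and the read depth behind each list is unknown.

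CXCL8, also called interleukin 8, draws neutrophils to sites of inflammation through the receptors CXCR1 and CXCR2. CXCL1, CXCL2, CXCL3, CXCL5 and CXCL6 are related chemokines that also act through CXCR2. TNFalpha is an inflammatory cytokine that activates NF-kB and, through the JNK kinases, c-Jun. AP-1 is a family of dimeric transcription factors of which c-Jun is a member, and AP-1, NF-kB and C/EBP sites upstream of CXCL8 are a textbook example of a cytokine-responsive promoter. In the RefSeq gene table (GRCh38.p14) the protein-coding genes run in the order CXCL8, CXCL6, PF4V1, CXCL1, PF4, PPBP, CXCL5, CXCL3 and CXCL2. Only the CXCL8 start, 74606223 on the plus strand, was used on the build of the peaks. Peaks beyond it are given by their distance from CXCL8 and were not assigned to one of the other genes.

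The RefSeq promoters of the 6 chemokines are shown because a peak of the window covers the CXCL8 start, the only gene start placed on the build of the peaks, and because the 6 share a short run of bases. In the 250 bases before the RefSeq start of CXCL8 (GRCh38.p14, plus strand), capitals mark an AP-1 match of the letters TGANTCA, from 137 to 131 bases before the start, and an NF-kB match of the letters GGANTTTCC, from 91 to 83 bases before it.
CXCL8: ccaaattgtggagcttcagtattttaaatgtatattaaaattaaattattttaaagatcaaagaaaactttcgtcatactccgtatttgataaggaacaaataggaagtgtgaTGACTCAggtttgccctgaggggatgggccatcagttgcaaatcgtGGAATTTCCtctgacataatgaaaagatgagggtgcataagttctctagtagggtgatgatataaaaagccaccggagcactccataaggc

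For the other 5 genes, 60 bases around the NF-kB match are shown, with the match in capitals and each read along the strand of its gene (plus for CXCL6 and CXCL1, minus for CXCL5, CXCL3 and CXCL2).
CXCL6: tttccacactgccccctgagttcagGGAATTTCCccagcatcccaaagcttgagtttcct
CXCL5: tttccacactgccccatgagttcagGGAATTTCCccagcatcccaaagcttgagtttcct
CXCL1: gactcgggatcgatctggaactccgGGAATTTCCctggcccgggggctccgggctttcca
CXCL3: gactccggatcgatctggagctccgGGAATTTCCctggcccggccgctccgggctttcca
CXCL2: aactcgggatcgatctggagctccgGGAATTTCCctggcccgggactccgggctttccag

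The same 9 bases stood in all 6 promoters, between 69 and 91 bases before the start. The GGANTTTCC letters were present upstream of the start in 1.45% of the 35116 RefSeq promoters, both strands searched. The stretches were set side by side on the NF-kB match, without gaps, so its 9 bases agree in every pair. Those of CXCL6 and CXCL5 were the same at 59 of 60 positions, and those of CXCL1 and CXCL3 at 56 of 60. CXCL2 shared 48 positions with CXCL1 and 47 with CXCL3, whereas CXCL8 shared 18 to 24 with the other 5. The AP-1 letters TGANTCA were found in CXCL8 and in none of the other 5 promoters, against 6.57% of all promoters. CXCL8 was 1 of 39 promoters (0.111%) that held both kinds of match. The CRE-type letters TGACGTCA (1.65% of all promoters) and the C/EBP letters TTGCNNCAA (1.62%) were in none of the 6, which says only that these letters are not in these windows. None of the 4 motifs overlapped another in the 6 promoters. Of 14 further CXC chemokines and receptors on the list, 11 were in the table. The NF-kB letters were found in CXCL10 and CXCL11, and the AP-1 letters in CXCL11 and CXCL14. A match is a run of letters, not a bound site. The CXCL8 starts of the 2 builds may not be the same base, so these matches were not placed on the peak described next.

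A c-Jun peak covered the CXCL8 start in the library with TNFalpha and in neither list of the library without it. It ran over 252 bp, chr4:74606108-74606359, from 115 bp before the start to 136 bp after it. Its score, a number the authors' peak caller gave to each peak and here used only to rank peaks inside a list, was 50.81 against IgG, where the lowest score in the list was 50.01. That placed it at rank 4337 of 4439. Against input it scored 96.72, rank 3915 of 8040, so that 51.3% of the peaks in that list scored lower. The peak over the start was thus near the bottom of 1 list and near the middle of the other. In the library without TNFalpha the closest peak lay 32.16 kb off.

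Joining peaks that overlapped in any list gave 21 sites in the window. Of these, 15 were found only with TNFalpha and 6 in both libraries, and there was no site found only without TNFalpha. The 15 include 5 called against 1 control. No share over all chromosomes was taken for sites joined in this way, so shares are given below for peaks only. In the lists called against IgG the window held 4 of 3323 peaks without TNFalpha and 16 of 4439 with it. Against input it held 6 of 7919 and 20 of 8040. For each control the list with TNFalpha was the longer one, so these counts are read beside the list lengths. A both-control peak was an IgG-controlled peak that overlapped an input-controlled peak of its own library by at least 1 bp. It counted as shared if it overlapped any peak of the other library. The 15 both-control peaks with TNFalpha comprised 10 found only with it and 5 shared. Over all chromosomes 35.9% of the 4159 both-control peaks with TNFalpha were found only with it, and on the rest of chromosome 4 the share was 26.1% (47 of 180). Without TNFalpha the window held 4 both-control peaks and all 4 were shared, where 20.1% of 3086 over all chromosomes were found only without it. Within the IgG-controlled lists alone, 13 of 16 peaks with TNFalpha and 1 of 4 without it had no partner, against 49.7% and 32.6% of all peaks. Within the input-controlled lists alone the numbers were 14 of 20 and 0 of 6, against 49.1% and 47.8%. These shares describe a window already known to hold such peaks.

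**Figure D1:**
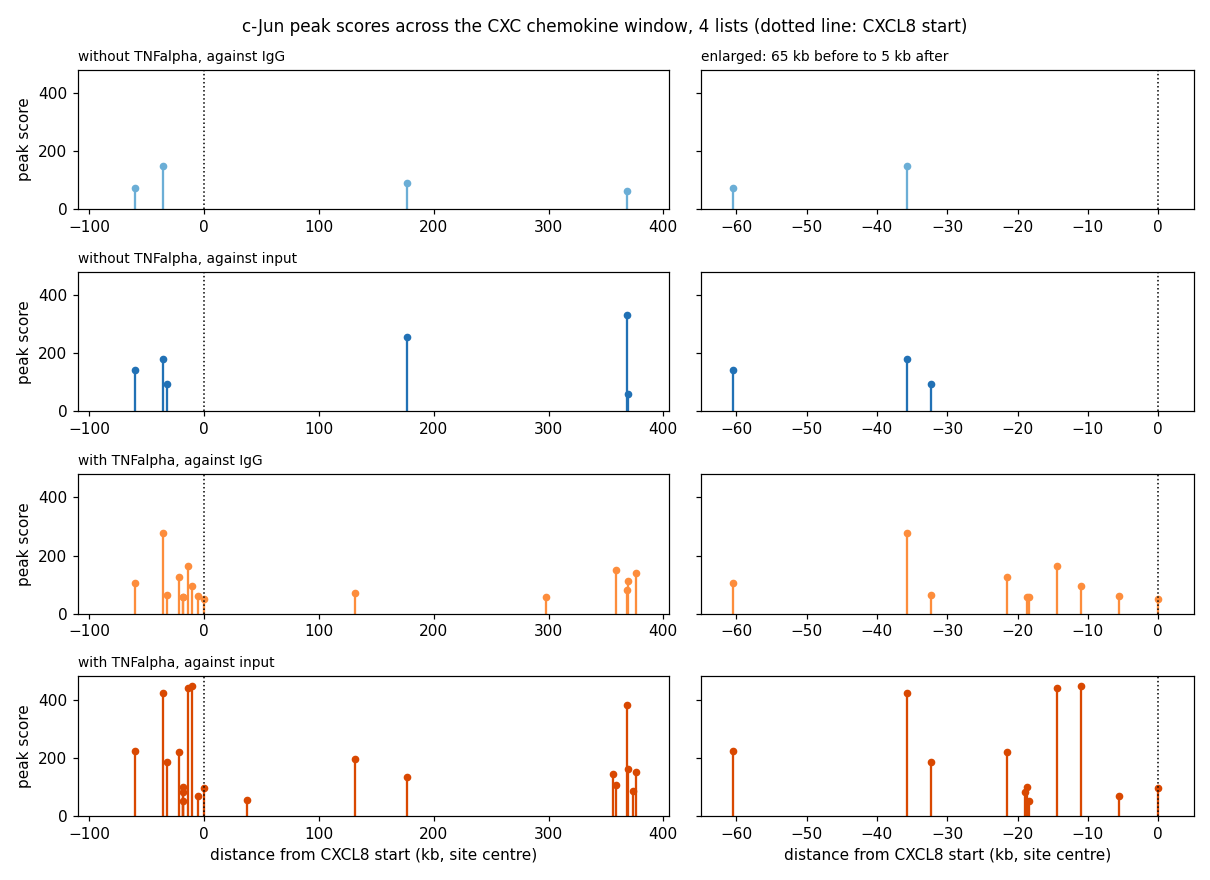
Peak score (vertical axis, the caller's own unit) against distance from the CXCL8 start in kb for each of the 4 lists, with the stretch before CXCL8 enlarged at the right; each stem is 1 peak. With TNFalpha the stretch from 21.6 kb before CXCL8 to its start holds peaks in both lists, and without TNFalpha it holds none.

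The largest group of sites lay before CXCL8. There, 11 sites spanned 60.8 kb and ended on the CXCL8 start. Of the 11, 8 were found only with TNFalpha, a count of sites that has no share over all chromosomes beside it. The gaps between them had a median of 3.04 kb and were at most 23.9 kb. Of the 10 both-control peaks with TNFalpha in this stretch, 7 were found only with it, beside 35.9% over all chromosomes. Within 20 kb of the CXCL8 start there were 6 both-control peaks with TNFalpha and 0 without it, and within 50 kb there were 9 and 1. Against IgG, those centred 18.7, 18.4 and 5.5 kb before CXCL8 ranked 3915, 3866 and 3669 of 4439. The peak over the start ranked 4337. The IgG-controlled list without TNFalpha held only 3323 peaks, so these ranks lie beyond its length.

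Ordered towards CXCL8, the first of the 7 both-control sites found only with TNFalpha was centred 21.6 kb before the start (chr4:74584387-74584955, 569 bp). It scored 124.74 against IgG (rank 1193 of 4439) and 220.32 against input (rank 1186 of 8040). It lay 10.44 kb from the nearest peak without TNFalpha. The places in the 2 lists were alike, with 73.1% and 85.2% of peaks scoring lower.

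Next came a group of 3 narrow peaks centred 18.9 to 18.4 kb before CXCL8, separated by 6 bp and 17 bp. The first (chr4:74587213-74587428) was called only against input, with a score of 81.48. The second (chr4:74587435-74587708) scored 56.28 against IgG and 100.45 against input. The third (chr4:74587726-74587993) scored 57.05 against IgG and 52.86 against input. In each list that held them, at most 53.5% of peaks scored lower. They count as 1 site when sites within 500 bp are joined. With a pair 29 bp apart at the far end of the window also joined, 18 sites are left in place of 21.

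The sites centred 14.4 kb and 11 kb before CXCL8 were the strongest of those found only with TNFalpha when ranked against input. The first (chr4:74591349-74592201, 853 bp) scored 165.15 against IgG, rank 636 of 4439, and 441.77 against input, rank 227 of 8040. The second (chr4:74594922-74595529, 608 bp) scored 93.65 against IgG, rank 1942, and 447.07 against input, rank 219. Both were in the highest 3% of the input-controlled list, with 97.2% and 97.3% of peaks scoring lower. Against IgG their places were further apart, at 85.7% and 56.2%. The closest peaks without TNFalpha lay 17.4 kb and 20.98 kb from them.

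Between these and the start lay a small site 5.5 kb before CXCL8 (chr4:74600547-74600808, 262 bp). It scored 59.16 against IgG (rank 3669) and 69.79 against input (rank 5593), in the lower part of both lists. Scores therefore did not climb towards the gene: the peak on the start and the one closest to it scored below the sites at 11 kb and 14.4 kb in both lists.

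**Figure D2:**
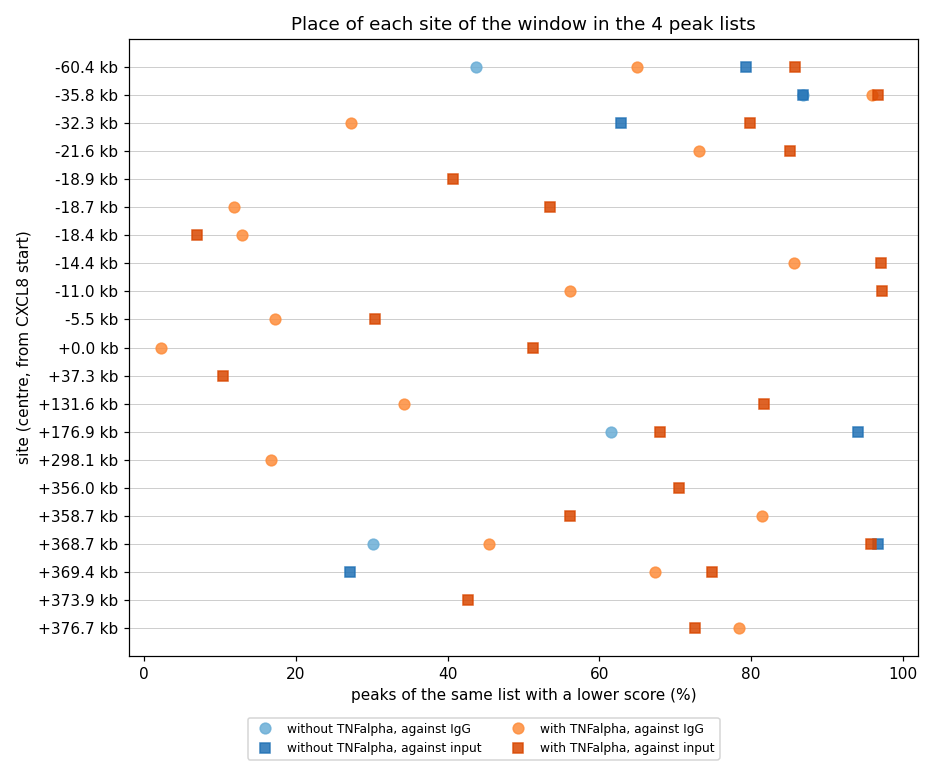
Place of each of the 21 sites in each list that held it, as the percentage of that list's peaks with a lower score (horizontal axis), with sites ordered by distance from the CXCL8 start (circles against IgG, squares against input, blue without and orange with TNFalpha). At 35.8 kb before CXCL8 the 2 marks without TNFalpha lie on top of each other at 86.8% and 86.9%; the mark of the site on the CXCL8 start is at 2.2% against IgG and 51.3% against input.

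The 3 sites farthest before CXCL8 were present in both libraries. The site 60.4 kb before it (chr4:74545541-74546042) scored 72.53 and 141.59 without TNFalpha, against IgG and input in that order, and 106.77 and 224.73 with it. The site 35.8 kb before it (chr4:74569948-74570951) scored 147.14 and 180.79 without TNFalpha and 276.39 and 422.9 with it. It was the highest IgG-controlled peak of the window in both libraries, at rank 439 of 3323 without TNFalpha and rank 180 of 4439 with it. The site 32.3 kb before CXCL8 (chr4:74573589-74574215) was called without TNFalpha only against input, with a score of 95.29. With TNFalpha it scored 65.22 against IgG and 184.31 against input. Scores of different lists have no common scale, so these sites are compared between libraries only by place, further on.

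Beyond CXCL8, where the other chemokine genes lie, 10 sites were spread over 339.7 kb. Of these, 6 were called against both controls in at least 1 library. With TNFalpha 5 were both-control peaks, and 3 of the 5 were found only with it, beside 35.9% over all chromosomes. The first 4 of the 10 stood alone, each at least 44.8 kb from the next site. The last 6 lay within 21.1 kb.

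Of the isolated ones, the site 131.6 kb beyond CXCL8 (chr4:74737605-74738076, 472 bp) was found only with TNFalpha. It scored 69.65 against IgG and 194.54 against input. The site at 176.9 kb (chr4:74782838-74783349) went the other way. Without TNFalpha it was called against both controls, with scores of 90.93 against IgG and 257.07 against input. With TNFalpha it was absent from the IgG-controlled list and scored 134.16 against input, over 311 bp in place of 512 bp. Against input, 94.1% of peaks scored lower than this site without TNFalpha and 68.0% with it.

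In the group at the far end, a peak found only with TNFalpha was centred 358.7 kb beyond CXCL8 (chr4:74964512-74965258, 747 bp). It scored 149.14 against IgG, rank 820 of 4439, and 104.99 against input, rank 3519 of 8040. It had a higher place against IgG than against input, whereas 12 of the 15 both-control peaks of the window with TNFalpha had the higher place against input. Over all 4159 both-control peaks with TNFalpha the place against input was also higher, by a median of 12.5 percentage points. A neighbouring pair, 29 bp apart, was present in both libraries. The first of the pair, at 368.7 kb (chr4:74974570-74975300), scored 64.08 and 330.99 without TNFalpha against IgG and input, and 80.98 and 382.05 with it. These scores have no common scale: against input its place was 96.7% without and 95.8% with TNFalpha. The second, at 369.4 kb (chr4:74975330-74975928), was called without TNFalpha only against input with a score of 58.32, and scored 111.01 and 159.80 with TNFalpha. The last site, at 376.7 kb (chr4:74982628-74983133, 506 bp), was found only with TNFalpha and scored 139.11 against IgG and 151.32 against input.

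The remaining sites were called against 1 control only, all of them with TNFalpha and in neither list without it. There were 5, counting the narrow one 18.9 kb before CXCL8. Those at 37.3 kb, 356.0 kb and 373.9 kb beyond CXCL8 were called against input with scores of 54.3, 142.75 and 84.07. The site at 298.1 kb (chr4:74904147-74904557) was called against IgG alone with a score of 58.77. Only the one at 356.0 kb was above the middle of its list, with 70.5% of peaks scoring lower.

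The 10 both-control peaks found only with TNFalpha had scores against IgG from 50.81 to 165.15. These scores had a median of 81.65, beside 74.91 for all 1493 such peaks, and 5 of the 10 were above that value. The highest, 14.4 kb before CXCL8, ranked 79 of 1493. The sites at 358.7 kb and 376.7 kb beyond CXCL8 and at 21.6 kb before it ranked 122, 159 and 209, and the peak over the CXCL8 start ranked 1451. Their median width was 489 bp, beside 394 bp for all such peaks, and ran from 252 to 853 bp. None of the 10 was therefore among the highest scoring 5% of the 1493.

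**Figure D3:**
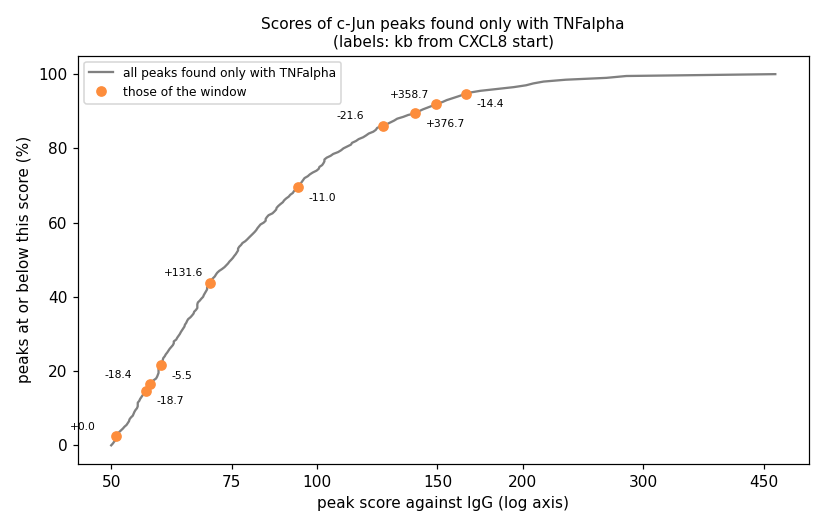
Cumulative distribution of the score against IgG (horizontal log axis) over the 1493 both-control peaks found only with TNFalpha, with the 10 of the window as labelled points (kb from the CXCL8 start). The points run from the peak on the CXCL8 start, at a score of 50.81, to the one at 14.4 kb before it, at 165.15.

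For the both-control peaks with TNFalpha, places in the input-controlled list were mostly higher than places in the IgG-controlled list. Over all 4159 both-control peaks with TNFalpha the median difference was 12.5 percentage points (interquartile range 0.8 to 28.1). In the window the difference was largest for the shared site 32.3 kb before CXCL8 (52.6 points), followed by the shared site at 368.7 kb (50.4 points) and the peak on the CXCL8 start (49.1 points). The first of these lay above 51.3, the value that marks the highest 5% of all both-control peaks with TNFalpha. The peak at 358.7 kb had the lowest, -25.3 points, below the value of -16.7 that marks the lowest 5% of all both-control peaks with TNFalpha. The places of sites in this window thus differed between the controls by -25.3 to 52.6 points. The 4159 both-control peaks came from 4439 IgG-controlled peaks, whereas the input-controlled list with TNFalpha held 8040. Choosing peaks found against both controls may favour higher places in the longer list, so these differences were not read as a measure of how strong a site is. How much of each difference comes from list length was not tested.

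Sites present in both libraries were compared by their place in each list, since scores of different lists cannot be set side by side. Against IgG, 3 sites had a peak in both libraries and all 3 stood higher with TNFalpha. The share of peaks scoring lower was 43.8% without and 65% with TNFalpha at 60.4 kb before CXCL8. It was 86.8% and 95.9% at 35.8 kb before CXCL8, and 30.2% and 45.4% at 368.7 kb beyond it. Over all 2231 such pairs, 51.0% stood higher with TNFalpha and the median difference was 0.4 points (interquartile range -16.1 to 20.1). Of the 3 differences, only the 21.2 points at 60.4 kb lay outside that range.

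Against input, 6 sites had a peak in both libraries, and 4 stood higher with TNFalpha. The largest rise was at 369.4 kb beyond CXCL8, from 27.1% to 74.9%. The others were from 62.9% to 79.9% at 32.3 kb before CXCL8, from 86.9% to 96.7% at 35.8 kb and from 79.3% to 85.8% at 60.4 kb. The site at 176.9 kb stood lower, at 94.1% without and 68.0% with TNFalpha. The site at 368.7 kb, higher with TNFalpha against IgG, was 0.9 points lower against input (96.7% and 95.8%), so its direction depended on the control. Over all 4089 such pairs 43.1% stood higher with TNFalpha, with a median difference of -3.2 points (interquartile range -20.8 to 11.5). Peaks at shared sites were wider with TNFalpha at 3 of 3 sites against IgG and at 5 of 6 against input, where 64.0% and 61.3% of all pairs were wider with it.

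**Figure D4:**
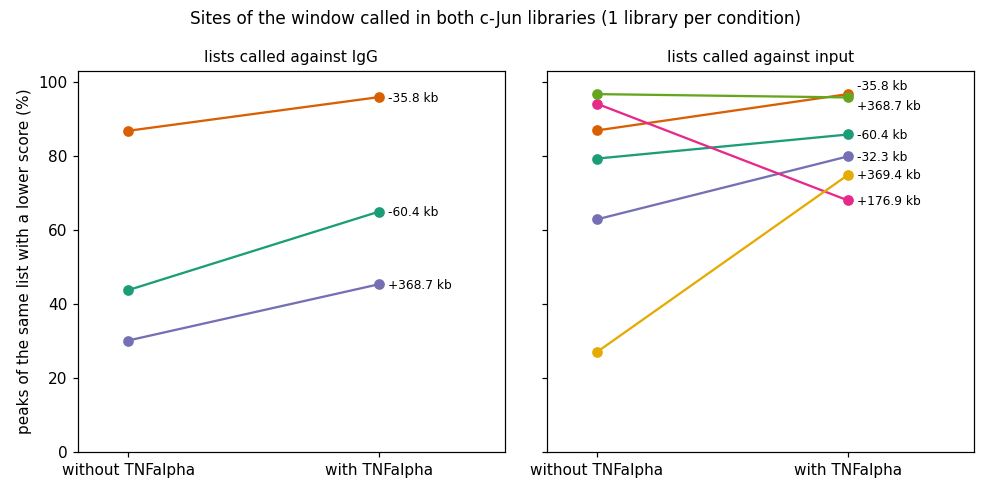
Percentage of peaks of the same list with a lower score, without and with TNFalpha, for the sites of the window called in both libraries (left against IgG, right against input; each line is 1 site, labelled by kb from the CXCL8 start). Lines rise for 3 of 3 sites against IgG and 4 of 6 against input, and the site at 176.9 kb falls from 94.1% to 68.0%.

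The density of peaks in the window is given as a description, because these peaks were known when the window was proposed and its edges had been set around them. It held 29.4 both-control peaks per Mb with TNFalpha, beside 0.945 per Mb on the rest of chromosome 4 and 1.37 per Mb over chromosomes 1 to 22 and X. Without TNFalpha it held 7.84 per Mb, beside 0.835 and 1.02. Peaks found only with TNFalpha numbered 19.6 per Mb in the window and 0.493 per Mb over all these chromosomes.

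Distances to the next peaks on the chromosome were taken from the edges of the window, which had been set around known peaks. Between neighbouring sites inside it, with the 4 lists joined, the largest gap was 120.8 kb. The rest of chromosome 4 held 0.945 both-control peaks per Mb with TNFalpha, so long distances between peaks were common there. With TNFalpha the nearest peak outside lay 575.2 kb past the far edge (chr4:75585014-75585330) and, on the other side, 656.0 kb before the window (chr4:73843805-73844167). Without TNFalpha the nearest were 124.2 kb past the far edge, with a score of 62.19 against input, and 652.8 kb before the window, with a score of 58.31 against input. Widening the window by 100 kb on each side added no peak to any of the 4 lists.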

How the data were processed

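Peak lists of 2 c-Jun ChIP-seq libraries of BT549 were used, 4 in all. The submitters' processing notes name hg19, CASAVA 1.8 for base calling and Bowtie 0.12.9 for alignment. Peaks carry names that start with MACS, whose version and threshold were not stated. The deposited score of each peak came from the authors' peak caller and has no stated scale, so it was ranked only within a list. Each list came from 1 library. Depth is unknown.

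Starts were raised by 1 to give 1-based hg19 positions. A place in a list is the percentage of its peaks with a lower score. Pairs for the shared comparison took the highest scoring overlapping peak. Densities took the highest peak end as the end of a chromosome. Overlap counts were checked with bedtools 2.31.1 and 0 of 36 differed. Python 3.11.15, numpy 2.4.6, pandas 2.3.3 and matplotlib 3.10.9 were used. Promoter sequences and gene order came from RefSeq tables of GRCh38.p14, and no coordinates were carried between builds. Every site called against both controls in at least 1 library was named with its values. The members and gene lists were chosen with earlier results of these data known. Positions of CXCL6, CXCL1, CXCL5, CXCL3, CXCL2 and the rest of the family on hg19, and sequences of the peaks, were not used here.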

Additional observations from a re-analysis of the deposited data

How the results depend on the processing

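No paired analysis was possible because the design has 1 c-Jun library with TNFalpha and 1 without it, so none could be left out either. The values of the window were 10 peaks found only with TNFalpha, 5 shared with TNFalpha, 0 found only without it and 4 shared without it. With the IgG-controlled lists alone, with only the other library's both-control peaks as hits, and with equal numbers of IgG-controlled peaks, peaks found only with TNFalpha numbered 13, 12 and 8. Each of these 3 settings gave 3 shared with TNFalpha and 1 found only without it, the site 176.9 kb beyond CXCL8, where the IgG-controlled list with TNFalpha has no peak. In these 3 settings the sites 32.3 kb before and 369.4 kb beyond CXCL8 also counted as found only with TNFalpha. Without TNFalpha both had been called only against input. With equal numbers, the peak over the CXCL8 start and those 18.7, 18.4 and 5.5 kb before it dropped out of the 10. The 8 are therefore not 8 of the same 10. Among the higher scoring 50% of each IgG-controlled list there were 5 found only with TNFalpha, 3 shared with it and 2 shared without it. Among the highest scoring 10% there were 0, 1 and 0. The 50% cut left 8 of 16 IgG-controlled peaks with TNFalpha and 2 of 4 without it in the window, as fewer peaks enter. The 10% cut left 1 and 0. In the input-controlled lists the 50% cut left 15 of 20 with TNFalpha and 5 of 6 without it. There the highest scoring 10% held 4 and 2. The rank difference at 368.7 kb beyond CXCL8 was 15.2 points against IgG and -0.9 against input, and the cause was not tested. Input-controlled lists alone, other overlap rules and a wider window moved no count by over 1.5 times. Distances from CXCL8 of 20 and 100 kb, added after seeing the data, gave 6 and 10 both-control peaks with TNFalpha where 50 kb gave 9. Without TNFalpha they gave 0 and 2 where 50 kb gave 1. The planned assignment of peaks to the nearest gene and the planned motif search inside peaks were not run, for want of hg19 positions and sequence here.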
